A study of Mus musculus with 36 samples.

Results

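Nuclear tRNA genes for nonpolar amino acids were chosen by name: a row belonged here when its gene name held the letter of alanine, glycine, valine, leucine, isoleucine, methionine, proline, phenylalanine or tryptophan followed by an anticodon. The rule found 168 loci among the 40205 features of the count files, carrying 23 anticodons for 9 amino acids, and left 226 nuclear tRNA loci for the other amino acids. Counts were summed per anticodon and per amino acid, and single loci were read as well. Neural stem cells (NSCs) came from the dorsal telencephalon of C57BL/6J (Ai14) mouse fetuses, a strain that carries a Cre-dependent fluorescent reporter allele, and grew as neurospheres, and fetuses of one sex within a pregnancy were pooled into a culture. Each of 3 pregnancies (sets 3, 4 and 5) gave 1 female and 1 male culture, and each culture was kept for 5 days at 0, 120 or 320 mg/dL ethanol. RNA of the extracellular vesicles (EVs) in the medium and of the cells that released them was sequenced, which made 12 groups of 3 libraries, 18 EV and 18 cell libraries in all. The labels give the strain of every group as C57BL/6J and the genotype as WT, the methods name Ai14 as well, and the control cultures share both with the treated ones. Because fetuses were pooled, a culture stands for a sex within a pregnancy and not for 1 animal.

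Transfer RNAs are short adaptors that read codons through their anticodon and carry the matching amino acid to the ribosome. RNA polymerase III makes them as precursors, whose ends are trimmed, whose introns (where present, as in some leucine and isoleucine genes) are spliced and whose bases are then heavily modified. Many near-identical gene copies serve each anticodon. Mature tRNAs and their fragments are known cargo of EVs, and a library protocol that copies intact modified tRNA poorly may see precursors and fragments more readily.

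EV libraries held 959217 to 5509952 counts and cell libraries 26566061 to 55282322, so EV values rest on far fewer counts and are less precise. Levels are given as CPM, counts relative to a library size scaled by TMM over the 36 libraries. Of 8 neural stem cell markers, 7 had counts and Sox2 was at 0 throughout, and their summed level was 1678 to 3413 CPM in cells and 866 to 1245 CPM in EVs. Summed neuron markers were at 425 to 873 CPM in cells and 198 to 337 CPM in EVs, oligodendrocyte lineage markers at 48.8 to 166 and 49.6 to 134 CPM, and astrocyte markers, with Aqp4 at 0, at 14.5 to 231 and 10.9 to 129 CPM. Microglial markers reached 0.193 CPM in cells and 10.2 CPM in EVs, and endothelial markers 2.17 and 13.5 CPM. The part of other cell types in the results was not tested. The female set 3 cell library at 320 mg/dL stood apart, with 0.328% of its counts in nonpolar tRNA loci against 0.0651 to 0.197% in the other 17 cell libraries, and results that rest on it are given with and without it. Fewer cells of a type and less RNA per cell cannot be told apart in such bulk samples.

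Which of the 168 loci had counts at all came first. In all 36 libraries 55 loci were at 0 and 113 had counts, 14 of them in cells and in no EV library, while no locus had counts in EVs alone. In the RefSeq gene table (GRCm38.p6, used for names and neighbours), 166 loci were found, 40 of them overlapping another annotated gene. All 40 were at 0, whereas 112 of the 126 loci without such an overlap had counts. The same held for 88 of the 92 overlapping loci of other amino acids. How reads shared by overlapping features were counted is not given in the sources used here, and the part of overlap in these zeros was not tested. The 7 loci inside 4930557F10Rik, the 4 inside Gm32298 and the 4 inside Gm32525 were among those at 0. Both Ile-TAT (1 locus) and Val-TAC (3 loci) were at 0, so 21 anticodons were measured.

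The only Ile-TAT locus, n-TItat14, lies within the hairpin gene Mir1983. This sequence is shown because the row of the microRNA gene had counts while that of the tRNA gene had none. The hairpin matched 1 place in GRCm39, the build of the files, at chr13:22081088-22081219 on the minus strand. Capitals mark the 94 bases that RefSeq assigns to the tRNA gene, in both lines.
Mir1983 hairpin: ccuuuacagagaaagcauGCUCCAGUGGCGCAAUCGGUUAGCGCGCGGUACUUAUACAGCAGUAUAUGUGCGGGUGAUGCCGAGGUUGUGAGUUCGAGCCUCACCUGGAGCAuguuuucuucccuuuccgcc
mature miR-1983: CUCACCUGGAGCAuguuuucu
The annotated microRNA thus shares its first 13 of 21 bases with the tRNA end. Mir1983 had 157 to 1314 counts per cell library and 0 to 12 per EV library, or a median of 5.89 CPM in cells (range 3.29 to 51.5) and 0.824 CPM in EVs (range 0 to 3.06). No EV library reached the lowest cell library, as was the case for 14.8% of all features tested. The edgeR quasi-likelihood log2 change from cells to EVs was -2.76 (SE 0.41, adjusted p = 1.34e-07), where 42.2% of all features were called lower. A row with so few EV counts can pass the filter on low counts through the cells, where it was high, and this favours such a call. How reads shared by both genes were counted is not given, so whether this row holds reads of the tRNA gene cannot be told.

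EVs held a smaller nonpolar part of the tRNA counts than their cells of origin. Nonpolar loci took 30.3% ± 2.46 (SD, n = 18 libraries) of the counts on nuclear tRNA loci in EVs and 45.4% ± 1.75 (n = 18) in cells. This share needs no scaling between libraries. EV values ran from 23.9 to 33.8% and cell values from 42.8 to 49.1%, so the groups did not overlap. The log2 ratio of nonpolar to other tRNA counts was lower in EVs by a mean of -0.94 ± 0.12 (SD, n = 6 cultures) and below 0 in 6 of 6 cultures. Aspartate and arginine loci held 21.8 and 23.6% of the pooled EV tRNA counts against 6.21 and 15.9% in cells, and without both the difference was -0.25 ± 0.13, still below 0 in 6 of 6 cultures.

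Of all counts in a library, nonpolar tRNA loci took 0.0138 to 0.0374% in EVs (median 0.0287%) and 0.0651 to 0.328% in cells (median 0.114%). Every EV library was below every cell library. Within cultures the log2 ratio of these shares averaged -2.14 ± 0.57 (SD, n = 6), and it was -1.32 ± 0.76 after TMM scaling, below 0 in 6 of 6 cultures either way. On the TMM scale the total ran from 247 to 743 CPM in EVs and from 462 to 3415 CPM in cells, and the groups overlapped. The median log2 fold change over all features was -0.08 with TMM and -0.88 with library totals, and folds below are on the TMM scale.

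Levels by amino acid gave the order of the family in EVs and cells. The edgeR quasi-likelihood test with Benjamini-Hochberg adjustment over 15147 features called 7 of 9 amino acid sums lower in EVs and none higher, where 41.9% of all features were called lower, 38.6% higher and 80.5% in either direction.

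**Figure D1:**
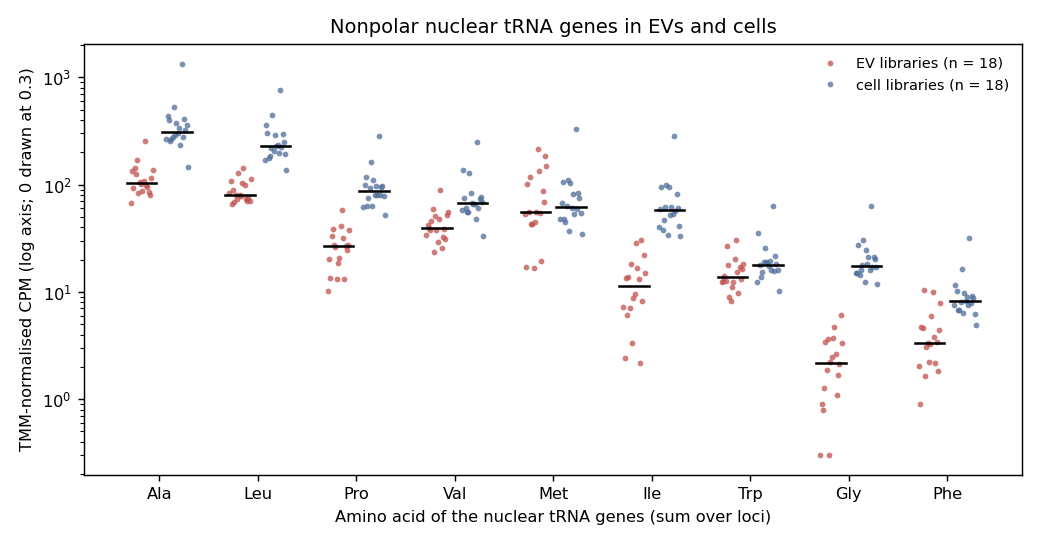
TMM-normalised CPM on a log axis for the summed loci of each amino acid, with 1 point per library (18 EV, 18 cell) and a black line at the median. Glycine and isoleucine EV points lie wholly below the cell points, and methionine medians are close, at 55.4 CPM in EVs and 61.4 CPM in cells.

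Glycine and isoleucine tRNAs were the furthest below the cells. Glycine loci had a median of 2.16 CPM in EVs (0 to 6.03) and 17.5 CPM in cells (11.9 to 62.8), with a log2 change of -3.02 (SE 0.22, adjusted p = 3.4e-15). Isoleucine loci had 11.4 CPM in EVs (2.18 to 30.4) and 58.1 CPM in cells (33.2 to 286), with a log2 change of -2.54 (SE 0.24, adjusted p = 5.06e-12). For both amino acids the EV and cell libraries did not overlap, and all 6 cultures were lower in EVs. Of all features tested in the table of single loci, 14.8% had every EV library below every cell library.

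Proline, alanine and leucine tRNAs formed the middle group, and their libraries overlapped. Proline loci had a median of 26.5 CPM in EVs (10.2 to 58.2) and 86.5 CPM in cells (51.9 to 284), a log2 change of -1.82 (SE 0.20, adjusted p = 2.97e-10). Alanine, the largest sum, had 103 CPM in EVs (67.5 to 255) and 311 CPM in cells (145 to 1345), a log2 change of -1.67 (SE 0.21, adjusted p = 8.85e-09). Leucine loci had 80.1 CPM in EVs (66.1 to 144) and 227 CPM in cells (136 to 767), a log2 change of -1.60 (SE 0.17, adjusted p = 1.9e-10). All 6 cultures were lower in EVs for each of these amino acids.

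Phenylalanine and valine tRNAs were called lower by smaller folds. Phenylalanine loci had 3.34 CPM in EVs (0.903 to 10.3) and 8.14 CPM in cells (4.87 to 32.1), and the log2 fold change was -1.16 (SE 0.25, adjusted p = 8.67e-05). Valine loci had 39.1 CPM in EVs (23.4 to 89.6) and 66.8 CPM in cells (33.5 to 248), and the log2 fold change was -0.91 (SE 0.20, adjusted p = 0.000131), with 5 of 6 cultures lower.

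Tryptophan and methionine sums did not pass the test. Tryptophan loci had 13.7 CPM in EVs (8.27 to 30.4) and 17.97 CPM in cells (10.2 to 63.5), with a log2 change of -0.40 (SE 0.20, adjusted p = 0.0588). Methionine loci, which the names do not split into the initiator that starts translation and the elongator, had 55.4 CPM in EVs (16.5 to 214) and 61.4 CPM in cells (35.01 to 327). Their log2 fold change was 0.05 (SE 0.27, adjusted p = 0.882), with 4 of 6 cultures lower, and -0.80 with library totals. The methionine call turned on the pregnancy: without set 3 it was called higher in EVs at 0.63 (adjusted p = 0.0152), and without set 5 lower at -0.70 (adjusted p = 0.0213). Tryptophan was called lower without set 5, at -0.85 (adjusted p = 0.00121). With library totals all 9 sums were called lower, where 9163 of 15147 features were called lower and 3423 higher.

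The make-up of the nonpolar tRNA counts differed between EVs and cells in a way that no scaling touches. These are shares of counts, not of molecules, since counts were not divided by length.

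**Figure D2:**
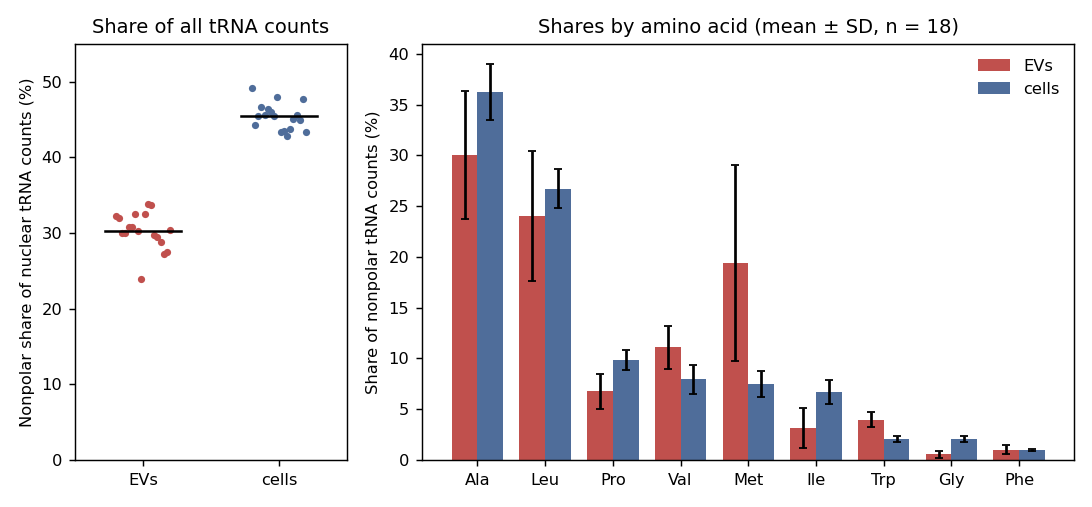
Left, the percent of nuclear tRNA counts on nonpolar loci, 1 point per library with the median as a line, where EV libraries (23.9 to 33.8%) lie below all cell libraries (42.8 to 49.1%). Right, mean ± SD over 18 libraries of each amino acid's percent of the nonpolar tRNA counts, with methionine at 19.4% in EVs and 7.48% in cells.

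Methionine loci took 19.4% ± 9.66 (SD, n = 18) of the nonpolar tRNA counts in EVs and 7.48% ± 1.26 in cells, but with EV libraries from 5.03 to 37.4% the groups overlapped. Tryptophan took 3.95% ± 0.75 in EVs and 2.06% ± 0.33 in cells. Glycine was on the other side, at 0.575% ± 0.347 in EVs and 2.09% ± 0.301 in cells, and isoleucine took 3.19% ± 1.97 and 6.69% ± 1.23. Alanine took 30.0% ± 6.32 in EVs and 36.2% ± 2.79 in cells, and it was the leading amino acid in 18 of 18 cell libraries but in 10 of 18 EV libraries, where methionine led in 5 and leucine in 3.

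Set against all nuclear tRNA counts of the same library, methionine stood 0.61 ± 0.67 (SD, n = 6 cultures) higher in EVs on the log2 scale, above 0 in 5 of 6 cultures, and tryptophan 0.36 ± 0.24 higher, above 0 in 6 of 6. Valine had -0.14 ± 0.32, with 2 of 6 cultures above 0. Phenylalanine, leucine, alanine, proline, isoleucine and glycine had -0.52, -0.78, -0.85, -1.08, -1.86 and -2.40, and none of their cultures lay above 0. Outside this group, aspartate had 1.68 ± 0.19, and selenocysteine, glutamate and arginine had 0.91, 0.83 and 0.54. Asparagine, threonine and serine had -0.0016, -0.62 and -0.63. Lysine, glutamine, histidine, cysteine and tyrosine ran from -1.63 (lysine) to -2.79 (tyrosine), with no culture above 0. Values as low as those of isoleucine and glycine were thus not limited to nonpolar amino acids.

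The methionine share in EVs varied with the culture. The male set 3 culture had 6.01% ± 1.65 (SD over 3 doses) and the female set 3 culture 16.8% ± 2.58. The set 4 cultures had 22.8% ± 7.36 (female) and 18.6% ± 4.08 (male), and the set 5 cultures 33.6% ± 6.37 (female) and 18.8% ± 8.54 (male). In cells of the same cultures the mean shares lay between 5.95 and 8.75%. EV library totals ran from 959217 to 4721132 counts in set 3, 975131 to 4395037 in set 4 and 2593303 to 5509952 in set 5, and the part of depth or of the pregnancy in this spread was not tested.

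Anticodons were read next. Of 21 anticodon sums tested, 19 were called lower in EVs and none higher by edgeR over 15171 features, against 41.9% of all features called lower and 38.6% called higher. Of these 21 sums, 8 passed the filter on low counts only through the cell libraries, where they were high, which favours a call: Pro-AGG, Pro-CGG, Leu-CAG, Ala-CGC and the 4 glycine anticodons. Of the 13 whose EV values passed alone, 11 were called lower and none higher, with a median log2 change of -1.26. EV libraries lay wholly below cell libraries for 2 of these 13 sums and for 5 of the 8, against 14.8% of all features tested in the table of single loci.

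**Figure D3:**
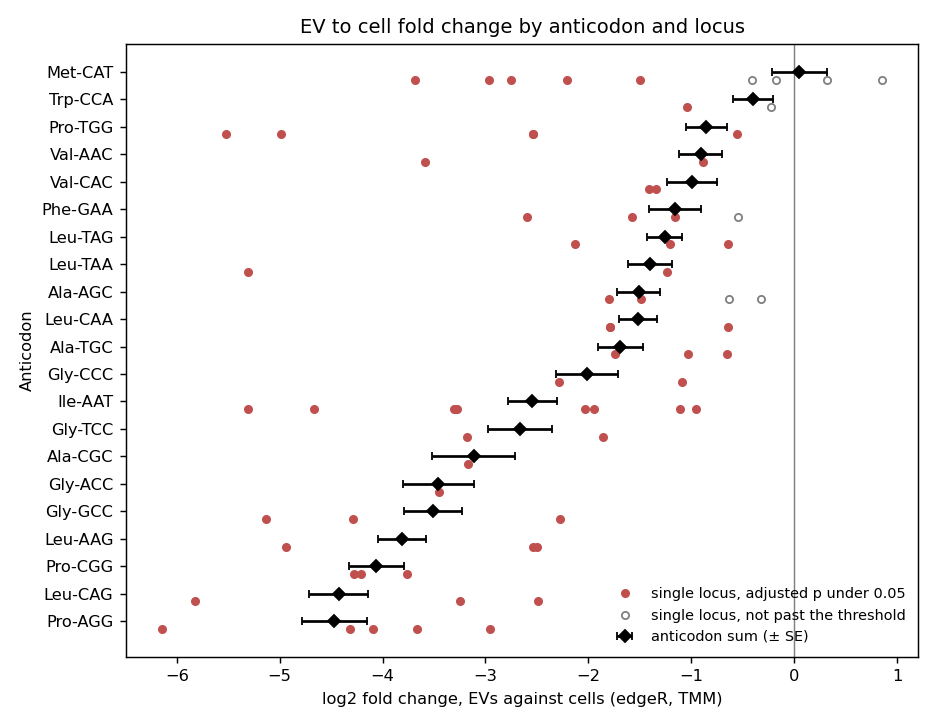
Log2 fold change of EVs against cells for 21 anticodon sums (black diamonds, ± SE) and for the 70 tested loci (filled where the adjusted p was under 0.05, open otherwise), with anticodons ordered by their sum. Anticodons run from -4.47 for Pro-AGG to 0.05 for Met-CAT, and loci of 1 anticodon are spread over several log2 units in Met-CAT and Pro-TGG.

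Proline showed it in 3 anticodons. Pro-TGG, which reads CCA, had a median of 23.1 CPM in EVs (9.21 to 51.9) and 41.4 CPM in cells (23.3 to 105), a log2 change of -0.85 (SE 0.20, adjusted p = 0.000172). Pro-AGG had 0.768 CPM in EVs (0 to 4.89) and 22.5 CPM in cells (13.1 to 95.7), a log2 change of -4.47 (SE 0.32, adjusted p = 3.13e-15). Pro-CGG had 1.19 CPM in EVs (0 to 3.66) and 23.0 CPM in cells (12.5 to 83.2), a log2 change of -4.06 (SE 0.27, adjusted p = 3.02e-16). No EV library reached a cell library for Pro-AGG or Pro-CGG, whereas Pro-TGG libraries overlapped.

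Leucine has 5 anticodons, and they fell into 2 sets. Leu-TAG, Leu-CAA and Leu-TAA had log2 fold changes of -1.26 (SE 0.17), -1.52 (SE 0.19) and -1.40 (SE 0.21). Leu-AAG and Leu-CAG had -3.81 (SE 0.23) and -4.43 (SE 0.29), with EV medians of 2.08 and 0.774 CPM against cell medians of 25.8 and 18.6 CPM. All 5 were called lower, and only Leu-AAG and Leu-CAG had EV libraries wholly below the cell libraries.

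The differences between anticodons of one amino acid were tested on the EV to cell ratio within cultures, which cancels library scaling. Over 23 pairs, 9 reached p = 0.03125, the smallest that a 2-sided exact sign-flip permutation test over 6 cultures can give, and the Benjamini-Hochberg value over the pairs was 0.0799, so no pair passed. Pro-AGG was below Pro-TGG by a mean log2 ratio of -3.72 ± 0.88 (SD, n = 6) and Pro-CGG below Pro-TGG by -3.16 ± 0.36, each in 6 of 6 cultures. Leu-CAG was below Leu-TAG by -3.18 ± 0.57 and Leu-AAG below Leu-TAG by -2.48 ± 0.46, also in 6 of 6 cultures. Leu-TAA and Leu-TAG differed by -0.08 ± 0.17 (exact p = 0.4375), and Val-AAC and Val-CAC by 0.11 ± 0.75 (exact p = 0.71875). The EV sums behind these ratios were 54 counts for Pro-AGG, 69 for Pro-CGG, 41 for Leu-CAG and 94 for Leu-AAG, against 1172 for Pro-TGG and 2529 for Leu-TAG.

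Alanine and glycine anticodons completed the lower groups. Ala-TGC had a median of 81.4 CPM in EVs (52.2 to 200) and 251 CPM in cells (114 to 1079), and Ala-AGC had 22.2 CPM (14.9 to 53.4) and 57.3 CPM (28.9 to 258). Their log2 fold changes were -1.69 (SE 0.22) and -1.51 (SE 0.21). Ala-CGC, at -3.12 (SE 0.40), rested on 12 EV counts in all and was at 0 in 10 EV libraries. The glycine anticodons Gly-GCC, Gly-ACC, Gly-TCC and Gly-CCC had log2 fold changes of -3.51 (SE 0.29), -3.46 (SE 0.34), -2.66 (SE 0.31) and -2.01 (SE 0.30), on 17 to 36 EV counts each. Ile-AAT had -2.54 (SE 0.24), Phe-GAA -1.16 (SE 0.25), Val-CAC -0.99 (SE 0.25) and Val-AAC -0.91 (SE 0.21), all past the threshold. Trp-CCA had -0.40 (SE 0.20, adjusted p = 0.0597) and Met-CAT 0.05 (SE 0.27, adjusted p = 0.878), which did not pass.

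At the level of loci, 70 of the 168 passed the filter on low counts, 51 of them only through the cell libraries, where they were high. Among the 70 the edgeR test called 62 lower and none higher, where 42.2% of 15281 features were called lower, 38.4% higher and 80.5% in either direction, and the median log2 fold change was -2.24 (-0.08 over all features). Because passing through the cells favours such a call, the 19 loci whose EV values passed the filter alone are also given: 14 were called lower, none higher and 5 did not pass, with a median of -0.89. EV libraries lay wholly below cell libraries for 22 of the 70 loci, against 14.8% of all tested features, but for only 1 of the 19 that passed on their EV values, n-TLtag3. Only n-TMcat11 and n-TMcat17 had log2 changes above 0, and n-TMcat17, named after its values were seen, had 0.86 (SE 0.42, adjusted p = 0.0569) on 69 EV counts in all. Without set 3 it was called higher at 1.34 (adjusted p = 0.0174), and without set 4 at 1.18 (adjusted p = 0.0378).

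The locus with the most counts over all libraries is given for each amino acid. Cell libraries hold far more counts than EV libraries, so this choice leans towards loci that are high in cells. These leading loci held from 21.3% (glycine) to 91.5% (valine) of the cell counts of their amino acid, and from 15.04% (glycine) to 93.0% (valine) of the EV counts. For alanine it was n-TAtgc10, with 95.8% of the cell counts and 93.2% of the EV counts of Ala-TGC. It had a median of 75.8 CPM in EVs (46.1 to 186) and 239 CPM in cells (109 to 1056), a log2 change of -1.74 (SE 0.22, adjusted p = 8.21e-09). For valine, n-TVaac3 had 36.5 CPM in EVs (19.6 to 84.9) and 60.4 CPM in cells (29.3 to 224), at -0.89 (SE 0.21, adjusted p = 0.000229). For proline, n-TPtgg8 had 22.1 CPM in EVs (8.19 to 50.1) and 32.7 CPM in cells (17.4 to 72.2), at -0.56 (SE 0.19, adjusted p = 0.009), with 4 of 6 cultures lower. All of these libraries overlapped. Without set 3 neither n-TVaac3 (-0.34, adjusted p = 0.0665) nor n-TPtgg8 (-0.14, adjusted p = 0.5) passed, and without set 4 n-TPtgg8 did not either (-0.46, adjusted p = 0.117).

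The leading isoleucine and glycine loci were further apart. The locus n-TIaat17 had 1.88 CPM in EVs (0 to 5.31) and 17.7 CPM in cells (10.5 to 84.5), at -3.28 (SE 0.25, adjusted p = 2.11e-14). The only Gly-ACC locus, n-TGacc1, had 0.117 CPM in EVs (0 to 1.83) and 4.12 CPM in cells (1.97 to 8.51), at -3.46 (SE 0.34, adjusted p = 2.16e-11). Neither locus had overlapping libraries, and both passed the filter on low counts only through the cells. In EVs other loci led. The locus n-TIaat6 held 29.3% of the isoleucine EV counts against 19.2% for n-TIaat17, and n-TGgcc7 held 15.9% of those of glycine against 15.04% for n-TGacc1. In all, n-TIaat6 had 159 EV and 6445 cell counts and n-TIaat17 had 104 and 19321, so the fold of n-TIaat17 does not stand for all isoleucine loci.

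Methionine, tryptophan and phenylalanine leaders did not pass. For n-TMcat11 the medians were 46.4 CPM in EVs (8.27 to 177) and 39.4 CPM in cells (18.2 to 222), with a log2 change of 0.32 (SE 0.29, adjusted p = 0.313). For n-TWcca5 they were 12.6 CPM (6.69 to 28.9) and 13.9 CPM (7.69 to 49.8), at -0.23 (SE 0.20, adjusted p = 0.297). For n-TFgaa1 they were 2.07 CPM (0.602 to 5.6) and 2.96 CPM (1.47 to 12.7), at -0.55 (SE 0.27, adjusted p = 0.0667). These too turned on the pregnancy: n-TMcat11 was called higher without set 3 (0.86, adjusted p = 0.00221), while n-TWcca5 (-0.69, adjusted p = 0.00976) and n-TFgaa1 (-1.03, adjusted p = 0.00816) were called lower without set 5.

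For leucine the locus with the most counts over all libraries was n-TLtag3, which the study also names, although in EVs n-TLtag1 had more, with 1545 counts against 632. It had a median of 13.1 CPM in EVs (8.65 to 24.1) and 53.3 CPM in cells (35.4 to 183), with no overlap and 6 of 6 cultures lower. The log2 fold change was -2.13 (SE 0.18, adjusted p = 5.94e-13). Its 2 partners for the same anticodon, named after their values were seen, were n-TLtag1 at -0.64 (SE 0.18, adjusted p = 0.00173) and n-TLtag2 at -1.20 (SE 0.22, adjusted p = 6.85e-06). Accordingly n-TLtag3 held 45.97% of the Leu-TAG counts in cells and 24.99% in EVs.

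The 5 called loci with the furthest folds were all near 0 in EVs, and all passed the filter only through the cells, where they were high, so their folds and p-values were favoured by that choice. The locus n-TPagg2 had 0 to 1 count per EV library, 6 in all, and 4.12 to 36.1 CPM in cells, with a log2 change of -6.14 (SE 0.35, adjusted p = 9.1e-18). The locus n-TLcag10 had 12 EV counts in all and 6.34 to 61.1 CPM in cells, at -5.83 (SE 0.35, adjusted p = 3.5e-17). The locus n-TIaat11 had 5 EV counts and 1.82 to 18.2 CPM in cells, at -5.31 (SE 0.47, adjusted p = 1.01e-12). For n-TPtgg7 and n-TLtaa2, with 2 EV counts each, EVs held 2.06% (95% exact counting interval 0.25 to 7.47%) and 2.30% (0.279 to 8.33%) of the cell level. Of the 14 loci at 0 in every EV library, n-TAcgc1 with 92 cell counts was at least 1.49-fold lower in EVs, taking 3 counts over the EV group as the limit that a count of 0 allows, and the others were under that limit in cells as well. These intervals and limits cover counting error only. Loci whose copies are near-identical share reads, so how the counting divided them is uncertain for every single locus.

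Genes that make, trim, modify and charge tRNAs were read from lists of protein-coding genes, to set beside the tRNA loci. Over all features of the same fit 42.2% were called lower and 38.4% higher, with a median of -0.08. Of 10 synthetase genes for these amino acids, which charge tRNAs, 8 were lower and 2 higher in EVs, with a median log2 change of -1.07. Eprs (glutamate and proline) had -1.60 (SE 0.13), Lars (leucine) -1.42 (SE 0.13) and Iars (isoleucine) -1.26 (SE 0.12), while Wars (tryptophan) had 2.52 (SE 0.15) and Vars (valine) 0.27 (SE 0.12). Of 19 genes of RNA polymerase III and its factors, 12 were lower and 5 higher (median -0.56), among them Polr3d at -2.04 (SE 0.14) and the TFIIIB subunit Brf1 at 1.14 (SE 0.08). Of 19 tested genes for end processing, splicing and export, 17 were lower and 1, the splicing endonuclease subunit Tsen54 at 0.70 (SE 0.15), was higher (median -1.09). Trnt1, which adds the CCA end, had -2.62 (SE 0.17), and Rtcb, which ligates the exons, had -1.87 (SE 0.11). Of 14 modification and cleavage genes, 9 were lower and 1, the methyltransferase partner Wdr4 at 2.39 (SE 0.11), was higher (median -0.66). With library totals the lower counts became 9, 16, 18 and 12 and the higher counts 1, 2, 0 and 1. On that scale 9292 of 15281 features were called lower and 3424 higher.

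Ethanol was compared with the culture as a block, in EVs and in cells. The edgeR test called none of 17 tested loci in EVs at 120 or at 320 mg/dL, where 0.00842 and 0.0842% of 11880 features were called. It called none of 90 tested loci in cells at either dose, where 0.0 and 0.0393% of 17792 features were called. At an unadjusted p under 0.05 there were 1 locus in EVs at each dose, 0 in cells at 120 mg/dL and 1 in cells at 320 mg/dL. DESeq2 called none in these 4 comparisons, but gave adjusted p-values for only 5 loci in EVs at each dose, and for 113 and 87 in cells. Over all features it called 13 of 4350 and 267 of 4924 in EVs at 120 and 320 mg/dL. In cells it called 4 of 30506 and 94 of 15720. For the anticodon sums none of 11 in EVs and none of 21 in cells were called at either dose, where 0.00843, 0.0843, 0.0 and 0.0397% of features were called, with 1 sum in EVs at each dose and none in cells at an unadjusted p under 0.05. DESeq2 called none, with adjusted p-values for 6 and 7 sums in EVs at 120 and 320 mg/dL and for 21 in cells at each dose. Over all features of that table it called 13 of 4325 and 268 of 4895 in EVs and 4 of 30306 and 99 of 15617 in cells.

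**Figure D4:**
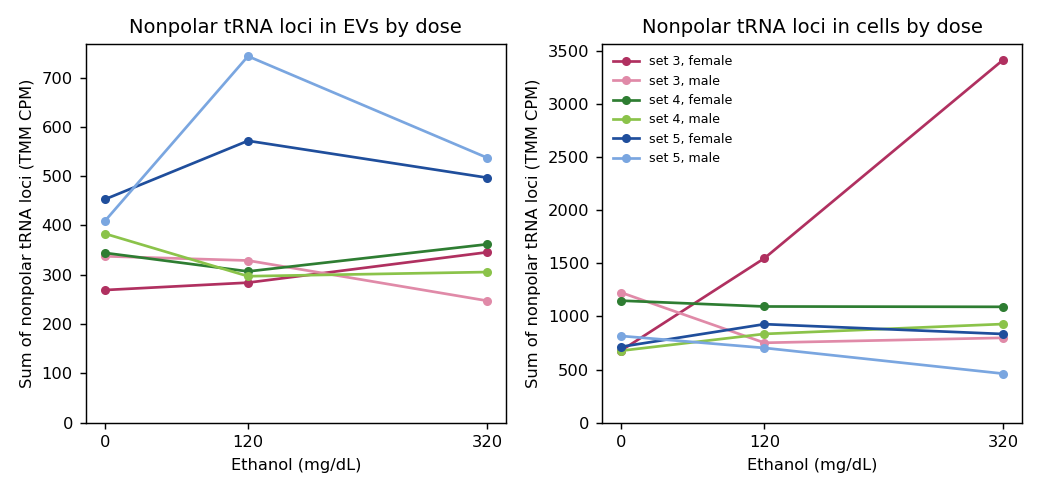
Sum of the nonpolar tRNA loci in TMM CPM against ethanol dose in EVs (left) and cells (right), 1 line per culture (6 cultures, named by pregnancy set and sex). Cultures move in different directions, and the female set 3 cells reach 3415 CPM at 320 mg/dL while the other 5 lie between 462 and 1090 CPM.

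In cells the total had a median of 766 CPM in controls (678 to 1225), 882 CPM at 120 mg/dL (704 to 1547) and 882 CPM at 320 mg/dL (462 to 3415). At each dose 3 of 6 cultures were above their control. The female set 3 culture went from 679 to 1547 and 3415 CPM, and the male set 5 culture from 816 to 704 and 462 CPM. All 21 anticodon sums had log2 fold changes above 0 at 320 mg/dL, with a median of 0.21 (-0.005 over all features), none past the threshold. Without the 3 female set 3 cell libraries 4 of 21 were above 0 and the median was -0.12 (0.004 over all features), so the direction rests on that culture. In EVs the total had a median of 364 CPM in controls (269 to 453), 318 CPM at 120 mg/dL (284 to 743) and 354 CPM at 320 mg/dL (247 to 538).

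Ile-AAT was the sum with an unadjusted p under 0.05 in EVs at both doses. It had a median of 7.09 CPM in control EVs (2.41 to 13.8), 13.2 CPM at 120 mg/dL (3.31 to 28.9) and 14.1 CPM at 320 mg/dL (2.18 to 30.4). At each dose 5 of 6 cultures were above their control, and the groups overlapped. The log2 differences were 0.84 (SE 0.24, adjusted p = 0.679) and 0.73 (SE 0.24, adjusted p = 0.226) with edgeR, and the controls are shared by both doses. The locus n-TIaat6 had 1.39 (SE 0.43, adjusted p = 0.748) and 1.17 (SE 0.45, adjusted p = 0.299). In cells Ile-AAT had medians of 53.3, 57.4 and 58.8 CPM at the 3 doses, and 3 and 2 of 6 cultures were above control.

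Whether ethanol shifted the EV to cell ratio was tested as an interaction. None of 70 loci and none of 21 anticodon sums were called by edgeR at either dose, where 0.00654% of features were called in the table of loci and 0.00659% in that of anticodons, at both doses. At an unadjusted p under 0.05 there was 1 locus at each dose and no anticodon sum. DESeq2 called none, but gave adjusted p-values for only 8 loci at each dose and for 10 and 8 sums at 120 and 320 mg/dL. Over all features it called 16 of 6373 and 248 of 5770 in the table of loci. In that of anticodons it called 16 of 6332 and 248 of 5733.

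Females and males were compared over 3 cultures each, with doses summed. The edgeR test called none of 21 anticodon sums in cells, where 0.0336% of 20806 features were called, and none of 14 in EVs, where 0.0% were called. In cells 20 of 21 sums were above 0 (higher in females), with a median log2 difference of 0.47 against -0.03 over all features, and 4 had an unadjusted p under 0.05. The share of all features at that unadjusted p was not counted. Without set 3, which holds the library that stood apart, 19 of 21 were above 0, the median was 0.31 and none had an unadjusted p under 0.05. Without set 4 none had such a p either, with 21 of 21 above 0 and a median of 0.47. Without set 5 there were 8, with 20 of 21 above 0 and a median of 0.62. Over all features the medians without set 3, 4 or 5 were 0.04, -0.02 and -0.05. The 4 sums with all sets were Gly-GCC at 0.68 (SE 0.22), Met-CAT at 0.67 (SE 0.27), Ala-CGC at 0.63 (SE 0.26) and Pro-CGG at 0.51 (SE 0.21). The mean over doses of Gly-GCC was 17.9, 11.6 and 8.77 CPM in female cells of sets 3, 4 and 5 and 6.50, 7.09 and 6.36 CPM in male cells, without overlap. The cell total was 1880, 1111 and 826 CPM in females and 925, 814 and 661 CPM in males, with overlap. In EVs Ile-AAT alone had an unadjusted p under 0.05, at 1.23 (SE 0.46, adjusted p = 0.315), with 12.8, 17.5 and 21.5 CPM in females and 2.63, 7.94 and 13.0 CPM in males, which overlapped. DESeq2 called none, with adjusted p-values for 21 sums in cells and 13 in EVs, where 175 of 20848 features were called in cells and 31 of 13400 in EVs.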

How the data were processed

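Total RNA of EVs and cells was depleted of ribosomal RNA and sequenced as stranded libraries. Per the labels and methods, the authors used Trimmomatic, STAR (build mm39), HTSeq and DESeq2, and deposited raw read counts per feature for each library (unit: counts, not normalized). The strand setting, the annotation and the treatment of reads with several matching places are not given in the sources used here, and these decide the values of multi-copy, overlapping genes. Mitochondrial tRNA was not analysed here.

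The deposited counts were tested with edgeR 4.0.16 in R 4.3.3 (glmQLFit and glmQLFTest, TMM, filterByExpr with a minimum count of 10, Benjamini-Hochberg adjusted p under 0.05 over all features). EVs against cells had sex and dose as covariates, ethanol had the culture as a block, and the ratio shift was an interaction. Standard errors are the log2 fold change divided by the root of its F. The fits were also run on simulated counts with known changes, set in features with higher counts and in independent libraries without culture effects. That run does not cover correlated libraries of a culture or loci with few EV counts. DESeq2 1.42.0, other scalings, filters, thinning and left-out sets were alternatives. Sequences are from RefSeq.

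The replicate number in the labels is the pregnancy, and a culture's EVs and cells at 3 doses share it. Deviations from group means correlated with a median r of 0.678 between cell libraries of a culture, 0.217 between its EV libraries and 0.0811 between its EV and cell library. Libraries of one culture at different doses are not independent cultures, so p-values of EVs against cells measure spread between libraries. With the block they measure spread between pairs of libraries, which also repeat a culture over the 3 doses.

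Named genes were all sums, the locus with most counts per amino acid, the 5 called loci with the largest fold in each direction among those moving one way in 6 of 6 cultures, up to 3 called loci per direction in each ethanol comparison, and n-TLtag3. The members and lists were chosen with earlier results of these data known.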

Additional observations from a re-analysis of the deposited data

Results flagged for a closer look

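Within each kind of library and dose, 6 libraries were compared, and a value was singled out when its gap to the nearest other library took up too much of the group's range by Dixon's 95% critical value. In 60 such groups (9 amino acid sums and the total) 18 were singled out. For a single group chance gives about 1 in 20. The groups share libraries and the total holds the 9 sums, so the 18 cannot be set against that rate. In cells at 320 mg/dL the female set 3 culture was singled out for all 9 sums and the total, at 1345 CPM for alanine, 767 CPM for leucine, 327 CPM for methionine, 286 CPM for isoleucine, 284 CPM for proline, 248 CPM for valine, 63.5 CPM for tryptophan, 62.8 CPM for glycine, 32.1 CPM for phenylalanine and 3415 CPM in total, against 1090 CPM in the nearest other library. The same library had 4006 CPM of other nuclear tRNA loci, and its library total was 26566061 counts. At 120 mg/dL the same culture was singled out for leucine (449 CPM), phenylalanine (16.3 CPM) and tryptophan (25.9 CPM). Control cells of the male set 3 culture were singled out for tryptophan (35.7 CPM) and valine (138 CPM), and those of the female set 4 culture for glycine (27.5 CPM) and methionine (106 CPM). Among EVs, the male set 5 culture at 120 mg/dL was singled out for alanine (255 CPM, nearest other 108 CPM). In 60 checks between EVs and cells or between sexes, no change with dose ran in wholly opposite directions.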

How the results depend on the processing

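The replicate block, pairing each EV library with the cell library of its culture and dose, called the same 62 of 70 loci, and it or its removal changed no call in any comparison. The block keeps the 3 doses of a culture as separate pairs, so it does not make the culture the unit. Under the block methionine and Met-CAT turned negative, at -0.095 and -0.093. Control libraries alone, which repeat no culture within EVs or within cells, called 57 of 71 loci lower and none higher. Over all features that fit called 5501 of 15858 lower and 4821 higher. Leaving out set 3, 4 or 5 called 52 of 66, 54 of 67 or 61 of 66 loci. Over all features these fits called 11639 of 15062, 11242 of 14897 and 11324 of 14810. Thinning to the smallest library total, with fewer features tested, called 12 of 16 loci, 11 lower and n-TMcat11 higher (0.73, adjusted p = 0.035), and 10 of 14 anticodon sums. Over all features the thinned table of loci had 3152 of 8094 lower and 3216 higher, and that of anticodons 3144 of 8086 lower and 3228 higher. DESeq2 called 16946 of 30942 features higher in EVs and 6310 lower, with a median log2 change of 1.73 over all features. Among the 113 loci it called 84, 77 lower and 7 higher, and 3 of those 7 were at 0 in every EV library. Another, n-TVaac2, with 21 EV and 104 cell counts, was called higher by DESeq2 (2.14, adjusted p = 8.54e-07). It was also called higher by edgeR without the filter (1.39, adjusted p = 0.00341), where 12652 of 31069 features were called higher and 9377 lower. The median log2 change over all features was 0.46 in that fit. None of the 6 cultures had less n-TVaac2 in EVs than in cells. The nonpolar total moved from -2.14 to -1.32 with TMM and -1.24 with median-of-ratios factors, and the nonpolar to other ratio from -0.94 to -0.62 without aspartate loci and -0.25 without aspartate and arginine loci, both chosen after seeing the data.

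Methionine and Met-CAT turned negative in controls alone (-0.14 each), with library totals (-0.80 each) and without the filter (-0.62 each), and ran from -0.70 to 0.63 without 1 pregnancy. The locus n-TMcat11 turned negative with library totals (-0.53) and without the filter (-0.35), and ran from -0.43 to 0.86. Scaling moved between these fits, as the median over all features was 0.46 to 0.49 without the filter and -0.08 to -0.07 with it. Tryptophan and Trp-CCA ran from -0.85 to 0.081 and 0.083, n-TWcca5 from -0.69 to 0.29 and n-TFgaa1 from -1.03 to 0.051. After thinning Trp-CCA was at 0.093 and n-TWcca5 at 0.27. The locus n-TMcat17 was called higher with median-of-ratios factors (0.93) and, chosen after seeing the data, without the female set 3 pair at 320 mg/dL (1.03). Without the filter 1 locus, n-TIaat6, and 1 anticodon sum, Ile-AAT (0.84, adjusted p = 0.0162), were called in EVs at 120 mg/dL. Over all features 157 of 29604 were called there in the table of loci and 167 of 29431 in that of anticodons. Ile-AAT was the 1 sum called higher in female EVs without the filter (1.10), where 642 of 29431 features were called. With doses kept apart it was again the 1 sum called (1.15), of 11 tested, where 1234 of 11028 features were called. Keeping doses apart counts the 3 doses of a culture as separate replicates of a sex. The cause was not tested. In EVs, 53 of the 113 loci with counts had fewer than 10 counts in all, which limits single loci.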
